A study of Mus musculus with 36 samples.

Results

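The smooth muscle contractile genes described here are 10 of the 49585 features in the deposited gene tables: Acta2, Actg2, Myh11, Myl9, Mylk, Tagln, Cnn1, Lmod1, Smtn and Des. They were chosen by name as components of the contractile machinery of smooth muscle, and all 10 were found in the tables and passed the filter on low values. They were measured in total RNA of whole bladder from C57BL/6 mice. All animals, those of the vehicle arm included, had both adrenal glands removed, which takes away the main source of corticosterone, the chief glucocorticoid of mice. After recovery 1 arm received corticosterone (CORT), given in the inactive phase of the day, and the other arm received vehicle. The 36 libraries fall into 12 groups of 3, a group being an arm at 1 of the labelled times 4, 8, 12, 16, 20 and 24 h. The labels give neither the age and sex of the animals nor the meaning of time zero. Nothing says that the 3 replicates of a group came from separate animals, so the p-values below reflect how far these samples varied, and some of that variation may be technical. The series title places the data in a study of how glucocorticoids set the bladder's own clock and the daily pattern of urination.

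The wall of the bladder is made largely of the detrusor, a smooth muscle that relaxes while urine is stored and contracts to empty the organ. In smooth muscle, calcium bound to calmodulin activates myosin light chain kinase, which phosphorylates the regulatory light chain of myosin and lets the myosin heads pull on actin filaments; a myosin phosphatase reverses this step. Many genes of this machinery are known targets of serum response factor (SRF) and its partner myocardin, which act through a promoter element called the CArG box.

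Among these genes, Acta2 and Actg2 encode the alpha and gamma actins of smooth muscle, and Myh11 its myosin heavy chain. Myl9 encodes a regulatory light chain and Mylk the kinase that phosphorylates it. Tagln (transgelin) and Cnn1 (calponin 1) encode proteins that bind actin filaments, Lmod1 (leiomodin 1) a protein that starts new filaments, Smtn (smoothelin) a cytoskeletal protein of contractile smooth muscle, and Des (desmin) the main intermediate filament protein of muscle. On mm10, with positions from GENCODE M21, Acta2 lies on chr19:34241090-34255590, Actg2 on chr6:83512905-83536265, Myh11 on chr16:14194535-14291372, Myl9 on chr2:156775420-156781658 and Mylk on chr16:34745210-35002420. Tagln lies on chr9:45929619-45936058, Cnn1 on chr9:22099216-22109630, Lmod1 on chr1:135324807-135368065, Smtn on chr11:3517523-3540612 and Des on chr1:75360329-75368579.

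RefSeq promoter windows (GRCm38.p6, 250 bases before to 50 after a gene's start) were at hand for 7 of the 10 genes, namely Acta2, Myl9, Mylk, Cnn1, Lmod1, Smtn and Des; Actg2, Myh11 and Tagln were not matched. They were searched on both strands because these genes moved together across libraries, as described further on. The CArG box, a motif of 10 bases, stood in 1 of the 7 windows, that of Myl9, and in 1.63% of 32851 windows of all genes. Allowing 1 G or C in the core of the box, matches stood in 2 of the 7 windows, Myl9 and Acta2, against 9.98% of all windows. The following 30-base stretches hold these matches, in capitals, written 5′ to 3′ on the strand of the gene. The first of them is the match without a G or C in its core. Positions are those of the whole stretch, and distances run from its first capital base to the RefSeq start. For both genes that RefSeq start lies inside the GENCODE gene interval given above.
Myl9, chr2:156775293-156775322, plus strand, 161 bases before the start: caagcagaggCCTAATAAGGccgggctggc
Myl9, chr2:156775355-156775384, plus strand, 99 bases before the start: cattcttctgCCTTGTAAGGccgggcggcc
Acta2, chr19:34255438-34255467, minus strand, 84 bases before the start: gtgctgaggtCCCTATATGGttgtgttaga
Acta2, chr19:34255388-34255417, minus strand, 34 bases before the start: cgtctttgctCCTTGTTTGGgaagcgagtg
Both Acta2 stretches lie within an exon of a GENCODE M21 transcript. The E-box CACGTG, the core element bound by clock factors, was in none of the 7 windows (7.15% of all windows), nor was the palindromic glucocorticoid element, AGAACA and TGTTCT with any 3 bases between them (0.00913% of all windows). These are matches of letters within a short window and do not show binding.

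Values are quantile-normalized read counts, called normalized counts below: every library holds the same set of values, so a gene's value gives its rank within its library. Libraries of the CORT arm held on average 11016413 counts and those of the vehicle arm 10682675; split by replicate number too, these means lay from 9591304 to 12311337. The labels' protocol text describes extraction from blood with globin removal, although the source is given as whole bladder. The erythroid genes below include globins, so their share would be lowered if that step was done. In these libraries the 10 contractile genes made up 1.65% to 4.55% of all normalized counts, 12 urothelium markers 0.494% to 1.17%, 10 leukocyte markers 0.0173% to 0.0285% and 6 erythroid genes 0.00899% to 0.0592%. In the authors' tables of selected genes 8 replicate 2 libraries carry another name than in their full tables. The names of the full tables were used; none of the 10 genes was called in any comparison with the other names or with these 8 libraries left out. Under the names of the full tables the summed normalized count of 10 known glucocorticoid targets was 11112, 21969 and 20755 in the 3 CORT 4 h libraries; the library that the selected tables name CORT 4 h replicate 2, which is vehicle 16 h replicate 2 in the full tables, stood at 5380.

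One library stood apart for these genes. In vehicle 12 h replicate 2, 9 of the 10 contractile genes had their lowest value of all 36 libraries, against 5.91% of all features tested that were lowest there. Acta2 was at 18610 normalized counts in it, 0.422 times the median of the other 35 libraries, Actg2 at 14834 (0.403 times), Myh11 at 49720 (0.472 times) and Smtn at 1791 (0.411 times). Des was the exception, at 33921 and 0.809 times that median, a value it shared with 2 other libraries. In the same library 8 of 12 urothelium markers were at their highest of 36, against 6.61% of features highest there, with Upk1a, a plaque protein of the bladder lining, at 30385 against 9554 to 19007 elsewhere. The other 17 vehicle libraries held 2.74% to 4.55% of their counts in the 10 genes and the 18 CORT libraries 2.34% to 4.31%, all above the 1.65% of this library. In bulk RNA fewer muscle cells and less muscle RNA per cell cannot be told apart. Counts of times below use all libraries. Leaving this one out turns the sign of the 12 h difference, from higher to lower in CORT, for Acta2, Myh11, Mylk, Tagln, Cnn1, Lmod1 and Smtn. The library was singled out by low values of these same genes, so leaving it out was bound to lower their CORT minus vehicle estimates. Fits without it are therefore no separate support for lower values in CORT.

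**Figure D1:**
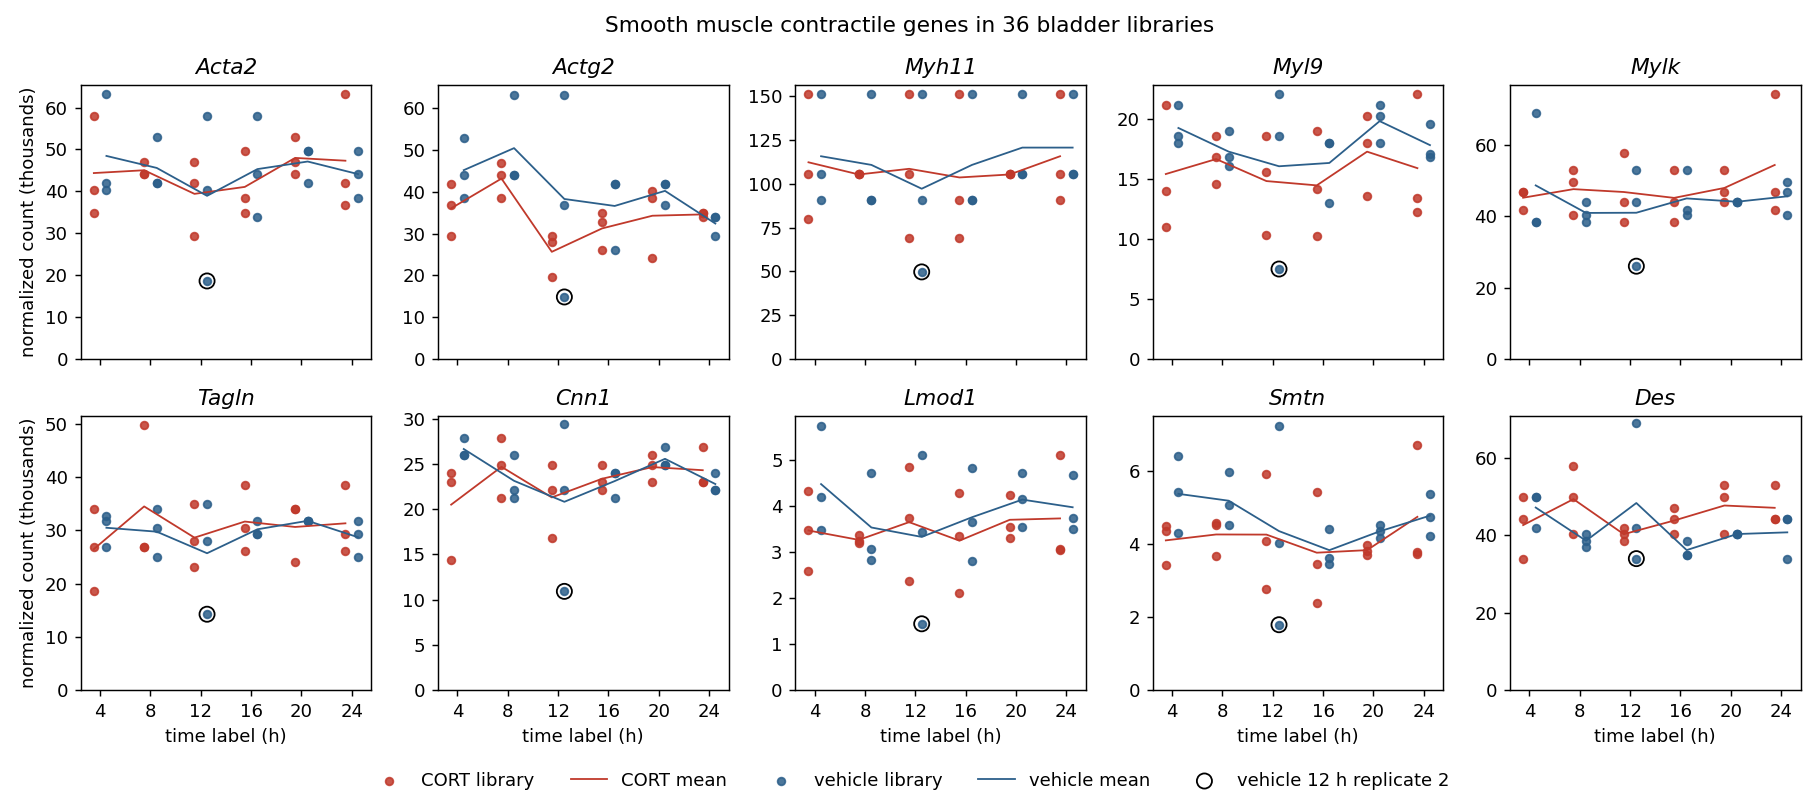
Normalized counts (in units of 1000, linear axis from 0) of the 10 genes against the time label, 1 point per library, with lines through the means of the 3 CORT and 3 vehicle libraries of each time. The ringed point is vehicle 12 h replicate 2, the lowest of 36 libraries for 9 of the genes, and the 2 arms overlap through most of the day.

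All 10 genes were abundant. Myh11 was the most abundant feature of the whole library in 10 of 36 libraries, 4 CORT and 6 vehicle, and never ranked below 10. Mylk ranked 5 to 25, Des 6 to 18, Acta2 7 to 34, Actg2 7 to 45, Tagln 10 to 48, Cnn1 22 to 71 and Myl9 29 to 120. Smtn, at ranks 126 to 1249, and Lmod1, at 186 to 1655, were the least abundant. Since values follow from ranks, the top genes moved in steps: Myh11 took only 6 different values over 36 libraries, against 35 for Smtn and 34 for Lmod1. A change of Myh11 above rank 1 could not be recorded.

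Per kilobase of exon, the order changed. The mean normalized count per kilobase in vehicle was 26031 ± 7532 for Actg2, 20453 ± 4603 for Acta2, 15313 ± 2868 for Myl9, 14831 ± 4060 for Myh11 and 14803 ± 2367 for Tagln (SD, n = 18 libraries). The last 3 lay within their spread of one another. Des followed at 11147 ± 2192, Cnn1 at 8653 ± 1444 and Mylk, whose exons span 11.3 kb together, at 3928 ± 772. Smtn (1062 ± 275) and Lmod1 (980 ± 258) were lowest and overlapped. In CORT the same quantity was 21942 ± 4600 for Actg2 and 20123 ± 3792 for Acta2, 15356 ± 3618 for Tagln and 13585 ± 3205 for Myl9. Actg2 and Acta2 share much of their coding sequence with each other and with other actins, and how reads matching several genes were counted is not given in the sources used here, so their split is uncertain.

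The first comparison asked whether CORT changed these genes over the day as a whole. It set the mean of the 6 CORT group means against that of the 6 vehicle group means on the log2(value + 1) scale with limma, a linear model with moderated variances, and Benjamini-Hochberg adjustment over 17744 features. None of the 10 genes passed an adjusted p of 0.05, and none reached an unadjusted p of 0.05; 4.14% of all features passed, 2.85% lower and 1.3% higher in CORT. Of the 10 genes, 7 had a lower estimate in CORT and 3 a higher one, with a median difference of -0.03 against 0.02 over all features. In the next paragraphs a difference is always CORT minus vehicle, in log2 units, with its standard error and 95% interval.

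Of the actins, Actg2 had the largest difference of the 10 genes. Its normalized count ran from 19623 through a median of 34930 to 46894 in CORT and from 14834 through 41913 to 63166 in vehicle. The difference over the day was -0.21 ± 0.13 (interval -0.48 to 0.05), with an adjusted p of 0.354 (limma, Benjamini-Hochberg). It was lower in CORT at 5 of 6 times and in all 3 replicate numbers, at -0.26, -0.16 and -0.22. Without the 12 h libraries these 3 values were -0.08, -0.39 and -0.08, so their evenness rests on that time. The difference over the day was -0.13 without vehicle 12 h replicate 1. Leaving out vehicle 12 h replicate 2, the difference over the day was -0.31 ± 0.09 (interval -0.50 to -0.12), at an adjusted p of 0.0441 (limma, Benjamini-Hochberg). Actg2 then passed as the only 1 of the 10 genes. Beside it 1294 of 17680 features passed, 4.24% lower and 3.08% higher in CORT. In that comparison 8 of the 10 genes were lower in CORT, the median was -0.10, and 4 of 12 urothelium markers were called higher in CORT; whether tissue makeup plays a part in the Actg2 difference was not tested. With the 8 libraries left out that carry another name in other tables, the Actg2 difference was -0.14, and with those other names -0.05, and neither passed.

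Acta2 encodes the other smooth muscle actin. Its normalized count ran from 29389 through 44106 to 63166 in CORT and from 18610 through 43009 to 63166 in vehicle, so that the arms shared their highest value. The difference was -0.0049 ± 0.12 (interval -0.25 to 0.24), lower in CORT at 3 times and higher at 3. Within a library, the log2 ratio of Actg2 to Acta2 ran from -0.96 through a median of -0.35 to 0.09 in CORT and from -0.71 through -0.18 to 0.34 in vehicle. The ratio, which was formed after the values were seen and is given as a description, was -0.33 in vehicle 12 h replicate 2 and so within the range of the other vehicle libraries.

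For the motor and its switch, the kinase and the light chain lay on opposite sides of 0. Myh11 ran from 69029 through 105383 to 151448 normalized counts in CORT and from 49720 through 105383 to 151448 in vehicle, a difference of -0.04 ± 0.14 (interval -0.33 to 0.26). Myl9 ran from 10241 through 15107 to 22148 in CORT and from 7508 through 18018 to 22148 in vehicle. Its difference was -0.18 ± 0.13 (interval -0.44 to 0.08), and its mean was lower in CORT at all 6 times. By replicate number, however, the Myl9 difference was 0.03, -0.12 and -0.44. Leaving out vehicle 12 h replicate 2, it was -0.26 ± 0.10 (interval -0.47 to -0.05, adjusted p 0.118, limma with Benjamini-Hochberg), which did not pass. Without vehicle 12 h replicate 1 it was -0.13. Mylk ran from 38523 through 46894 to 74458 in CORT and from 26025 through 44106 to 69029 in vehicle, a difference of 0.12 ± 0.10 (interval -0.07 to 0.32). It was higher in CORT at 5 of 6 times (4 without vehicle 12 h replicate 2). By replicate number the Mylk difference was 0.02, 0.31 and 0.04, and that of replicate 1 was -0.0044 without the 12 h libraries. Neither Myl9 nor Mylk passed the test. The log2 ratio of Mylk to Myl9 within a library, again formed after the values were seen, ran from 1.11 through a median of 1.64 to 1.94 in CORT and from 1.05 through 1.25 to 1.79 in vehicle, and the highest vehicle value was that of vehicle 12 h replicate 2.

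Among the proteins that bind or build actin filaments, the estimates were small or imprecise. Tagln ran from 18610 through 28648 to 49720 normalized counts in CORT and from 14230 through 31084 to 34930 in vehicle, and Cnn1 from 14429 through 23026 to 27907 and from 10905 through 24042 to 29389. Their differences were 0.04 ± 0.11 (interval -0.18 to 0.27) and -0.02 ± 0.09 (interval -0.21 to 0.16). Lmod1 ran from 2103 through 3354 to 5101 in CORT and from 1439 through 3698 to 5744 in vehicle, and Smtn from 2399 through 3901 to 6737 and from 1791 through 4477 to 7251. Both had lower means in CORT at 5 of 6 times (6 without vehicle 12 h replicate 2), with differences of -0.12 ± 0.14 (interval -0.41 to 0.17) for Lmod1 and -0.15 ± 0.14 (interval -0.43 to 0.14) for Smtn. Without vehicle 12 h replicate 2 the Smtn difference was -0.24 ± 0.11 (interval -0.47 to -0.0030) and that of Lmod1 -0.20 ± 0.12, neither of which passed. Without vehicle 12 h replicate 1 they were -0.07 and -0.05. The ranges of the arms overlapped for each of these 4 genes.

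Des, the intermediate filament gene, lay on the other side. It ran from 33921 through 44106 to 57882 normalized counts in CORT and from 33921 through 40272 to 69029 in vehicle. The difference was 0.12 ± 0.07 (interval -0.03 to 0.27; adjusted p 0.374, limma with Benjamini-Hochberg), higher in CORT at 4 of 6 times and in all 3 replicate numbers, at 0.04, 0.19 and 0.13.

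**Figure D2:**
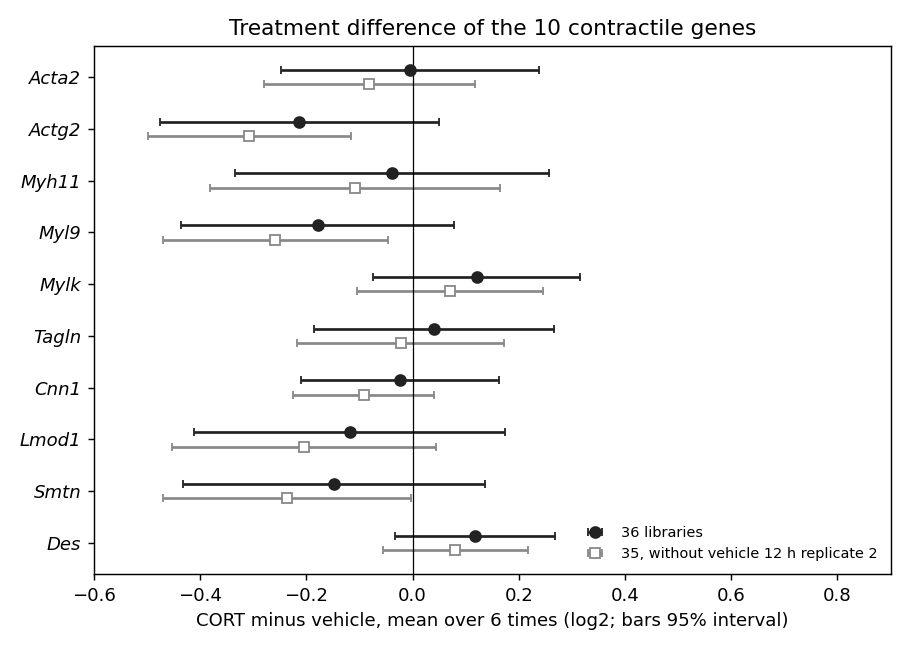
Difference between CORT and vehicle, averaged over 6 times (log2, horizontal axis), for each of the 10 genes, with bars for the 95% interval. Filled circles use 36 libraries and open squares leave out vehicle 12 h replicate 2, which was singled out by low values of these genes. Without it the Actg2 estimate is -0.31 in place of -0.21, and the intervals of Actg2, Myl9 and Smtn lie below 0. Only Actg2 then passes the adjusted test, beside 4.24% of all features called lower and 3.08% called higher in CORT.

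Taking each time by itself, none of the 10 genes passed at any time (3 against 3 libraries; limma, Benjamini-Hochberg over all features). The share of all features that passed was 0.163% at 4 h, 0.766% at 8 h, 0.0451% at 12 h, 0.0113% at 16 h, 0% at 20 h, where 1062 features had an unadjusted p under 0.05, and 0.0338% at 24 h. At 4 h all 10 genes had a lower mean in CORT, with a median of -0.28 and a range from -0.41 (Cnn1) to -0.05 (Mylk), against a median of 0.0046 over all features. At that time 12 of 12 urothelium markers had a higher mean in CORT, with a median of 0.34 and none called; the part of tissue makeup was not tested. At 8, 16 and 20 h, 6, 6 and 7 of the 10 genes were lower in CORT. At 12 h, the time of the vehicle library that stood apart, 7 of the 10 were higher in CORT. Leaving that library out, all 10 were lower, from -0.93 (Actg2) to -0.07 (Mylk), with a median of -0.30. A shift downward was fixed in advance, since the library was singled out by its low values of these genes. At 24 h 6 were higher.

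Actg2 illustrates the course over the day. At 4 h it stood at 41913, 36852 and 29389 normalized counts in CORT and at 38523, 44106 and 52935 in vehicle. At 8 h it stood at 46894, 38523 and 44106 in CORT and at 63166, 44106 and 44106 in vehicle. At both times the values of the arms overlapped. At 12 h the CORT libraries were at 27907, 29389 and 19623, the time with the lowest CORT mean, and the vehicle libraries at 63166, 14834 and 36852. The vehicle libraries of 12 h thus held the lowest value of all 36 and, shared with vehicle 8 h replicate 1, the highest. At 16 h CORT was at 34930, 26025 and 32778 and vehicle at 41913, 41913 and 26025. At 20 h CORT was at 40272, 24042 and 38523 and vehicle at 36852, 41913 and 41913. At 24 h, the time at which the CORT mean was higher, CORT was at 34930, 33921 and 34930 and vehicle at 33921, 33921 and 29389. The 12 h difference was -0.37 ± 0.31 with all libraries and -0.93 ± 0.25 (interval -1.45 to -0.42) without vehicle 12 h replicate 2, when 2 vehicle libraries remained; its adjusted p was then 0.318 (limma, Benjamini-Hochberg).

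At single times the groups of Cnn1, Des and Smtn did not overlap. Cnn1 at 4 h was at 23026, 24042 and 14429 normalized counts in CORT, all below the 26025, 27907 and 26025 of vehicle; 6.5% of all features had CORT below vehicle in this way at 4 h, and 7.15% above. Des at 16 h was at 44106, 40272 and 46894 in CORT, all above the 34930, 38523 and 34930 of vehicle, as 3.16% of features were (3.7% lay below). Smtn at 20 h was at 3979, 3715 and 3822 in CORT, all below the 4171, 4371 and 4523 of vehicle, as 6.3% of features were (8.71% lay above). No member's groups stood apart at 8, 12 or 24 h, where the share of features with CORT below was 11.1%, 3.61% and 5.02% and with CORT above 12.8%, 3.28% and 6.22%. The differences were -0.41 ± 0.22 for Cnn1, 0.28 ± 0.18 for Des and -0.18 ± 0.34 for Smtn, and none passed (adjusted p 0.784, 1.000 and 0.959, limma with Benjamini-Hochberg). Whether the difference between the arms varied over the 6 times was tested directly with a moderated F test, and none of the 10 genes passed against 0.13% of all features; the smallest unadjusted p was 0.170 for Des.

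The next comparisons asked whether these genes followed the time of day within an arm. In vehicle none of the 10 passed a moderated F test over 6 times (0.401% of 17717 features passed) or a test of a 24 h cosine (0.44% passed). Fitted amplitudes, from mean to peak in log2, lay between 0.09 (Des) and 0.26 (Smtn, ± 0.13, peak at 3.57 h), with a median of 0.16 against 0.12 over all features. Without vehicle 12 h replicate 2 most of these amplitudes were lower, that of Acta2 at 0.02 in place of 0.13, of Myl9 at 0.04 in place of 0.17 and of Lmod1 at 0.08 in place of 0.23. Smtn was at 0.21 ± 0.08 and Actg2 was at 0.26 ± 0.10, with adjusted p values of 0.412 and 0.394 (limma, Benjamini-Hochberg).

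In CORT none of the 10 passed either test, and 0.0167% and 0% of 17921 features did; 1055 features had an unadjusted p under 0.05 in the cosine test. Amplitudes lay between 0.05 (Tagln) and 0.21 (Actg2, ± 0.10, peak at 3.52 h), with a median of 0.07 against 0.10 over all features. Actg2 had the widest range of group means in CORT, 0.77 in log2 between 8 h (43174 ± 4263 normalized counts, SD, n = 3) and 12 h (25640 ± 5263). In the F test its adjusted p was 0.894 (limma, Benjamini-Hochberg). The other 9 genes ranged over 0.20 (Myh11) to 0.36 (Tagln). The direct test of a difference in rhythm between the arms was passed by none of the 10 genes and by 0.107% of all features, with unadjusted p values from 0.567 (Cnn1) to 0.991 (Acta2).

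**Figure D3:**
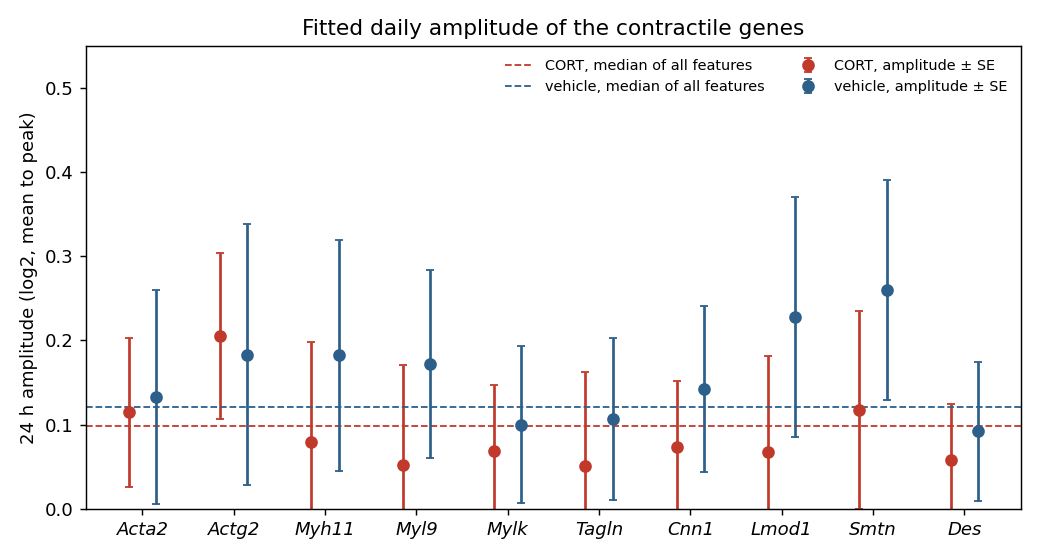
Amplitude of a fitted 24 h cosine (log2, mean to peak, vertical axis) for the 10 genes in CORT and vehicle, with bars for 1 standard error and dashed lines for the median over all features of each arm. Amplitudes lie between 0.05 and 0.26, and the bars of the 2 arms overlap for every gene.

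These genes varied widely between libraries of the same group. The standard deviation within groups was 0.22 (Des) to 0.44 (Myh11) in log2, whereas its median was 0.14 over 2562 features with a mean of 1000 or more. Myh11 lay at percentile 97.2 of those features, Lmod1 at 97.0, Smtn at 96.5 and Des at 75.4. Myh11 took only 6 different values, set by its rank, so its spread is measured in coarse steps. Without vehicle 12 h replicate 2 the range was 0.19 (Cnn1) to 0.40 (Myh11). Replicate 1 libraries were often the high ones: Acta2, Myh11 and Lmod1 had their highest value of a group in replicate 1 in 10 of 12 groups, Tagln in 9, and Myl9 and Smtn in 8. Over all features 11.4% had replicate 1 highest in 8 or more groups, and 6 of the 10 genes did. The mean normalized count of Myh11 was 143770 in replicate 1, 92773 in replicate 2 and 95311 in replicate 3, and that of Acta2 53183, 40264 and 40211. Both arms have 1 replicate 1 library at each time. What the number stands for is not given in the labels, except that replicate 3 libraries were registered later and lack a time tag.

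The 10 genes varied together from library to library. Pearson correlations among their log2 values over 36 libraries had a median of 0.68 over 45 pairs, from 0.25 (Myl9 with Des) to 0.90 (Myh11 with Lmod1). Without vehicle 12 h replicate 2 the median was 0.54, from -0.02 (Actg2 with Mylk) to 0.87. Within arms the median was 0.56 over 18 CORT libraries and 0.52 over 17 vehicle libraries. Such values describe these libraries, which share a fixed set of normalized values, so that a gene taking a higher rank moves others to lower ones.

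The mean of the 10 genes, each centred on its own mean, also tracked other muscle genes. Its correlation was 0.95 over 36 libraries (0.93 over 35 without vehicle 12 h replicate 2) with the mean of 25 partners of the contractile apparatus. With 13 factors of the SRF and myocardin group it was 0.59 (0.52), and with 8 pericyte and vascular muscle markers 0.64 (0.62). With 12 striated muscle genes it was 0.38 (0.33), with 10 fibroblast markers 0.12 (0.09), with 8 endothelial markers 0.15 (0.35) and with 10 glucocorticoid targets -0.16 (-0.19). Some pooled values hide unlike arms. Over 18 CORT libraries and 17 vehicle libraries, the SRF group was at 0.36 and 0.73, striated muscle at 0.20 and 0.61, and fibroblast markers at 0.15 and -0.43. The contractile partners (0.94 and 0.92) and the pericyte list (0.62 and 0.63) were alike in both arms. These differences between arms were not tested. The urothelium stood at the other end, at -0.84 (-0.81), and at -0.76 within the 18 CORT libraries and -0.89 within 17 vehicle libraries. Summed normalized counts of the 12 urothelium markers ran from 53577 to 127193, and the library with the highest urothelium sum was the one with the lowest muscle sum.

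**Figure D4:**
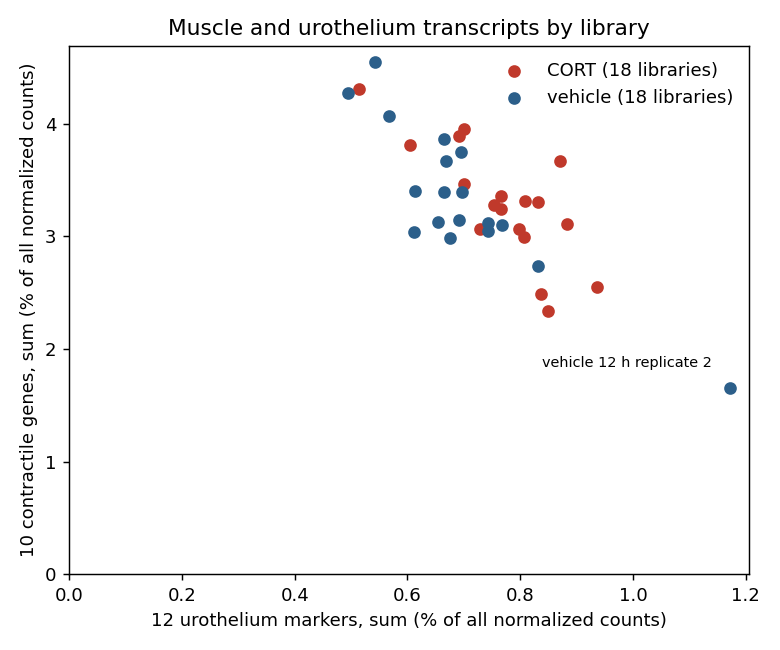
Share of all normalized counts taken by the 10 contractile genes (vertical axis, percent) against that of 12 urothelium markers (horizontal axis, percent), 1 point per library. Libraries with more urothelium signal had less muscle signal in both arms, and vehicle 12 h replicate 2 lies farthest out, at 1.65% and 1.17%.

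Among 10146 features with a mean of 100 or more, the 8 most like the members' mean were Tmem252 (correlation 0.97 over 36 libraries), Pgm5 (0.95), Ehbp1l1 (0.94), Pdlim3, Tspan2, Prkacb, Nrbp2 and Kank1 (each 0.93). Pgm5 encodes a protein of muscle adhesion sites, Pdlim3 a protein of the actin-anchoring lines of muscle, and Prkacb a catalytic subunit of protein kinase A; Pgm5 and Pdlim3 also stand in the list of 25 partners. The 8 lay between 0.89 and 0.95 without vehicle 12 h replicate 2. In all, 229 features had a correlation over 0.8, and 172 without that library. The median over all features was -0.06.

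Lists of genes around this machinery were taken through the comparison of the mean over the day. Of 24 partners of the contractile apparatus that could be tested, none passed; 20 were lower in CORT, with a median of -0.17 against 0.02 over all features. The smallest adjusted p values belonged to Actn1 (alpha-actinin, -0.43 ± 0.16, adjusted p 0.116), Vcl (vinculin, -0.30 ± 0.11, 0.119) and Tln1 (talin, -0.20 ± 0.08, 0.158; all limma with Benjamini-Hochberg), followed by Tpm4, Cald1 and Cav1. Without vehicle 12 h replicate 2, 3 of the 24 were called lower and 23 had a lower estimate, beside 4.24% of 17680 features called lower and 42.9% with a lower estimate. Of 12 tested factors of the SRF and myocardin group none passed, 10 were lower, and the median was -0.12. Tead1 (-0.16 ± 0.07) and Foxf1 (-0.34 ± 0.15) had the smallest adjusted p values of that group, both 0.197 (limma, Benjamini-Hochberg).

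Markers of other cell types of the bladder wall were followed in the same comparison, and their part in the values of the contractile genes was not tested. Of all features 2.85% were called lower in CORT there, and 4.24% without vehicle 12 h replicate 2. All 12 urothelium markers were higher in CORT with none called, a median of 0.17 and sums from 55749 to 101533 in CORT and 53577 to 127193 in vehicle. Of 10 fibroblast markers 6 were called lower in CORT (7 without vehicle 12 h replicate 2), with sums from 141656 to 240088 in CORT and 173883 to 346487 in vehicle. Of 8 endothelial markers 7 were called lower with and without that library, with sums from 2419 to 4205 and 3111 to 6157. Of 8 pericyte and vascular muscle markers 2 were called lower, Pdgfrb and Heyl (4 without that library), with sums from 12142 to 14751 and 12632 to 16581. Leaving out the replicate 2 libraries, or using the other names of 8 libraries, 0 markers of these 3 lists were called; leaving out the replicate 3 libraries, 1 endothelial marker was. None of the 10 contractile genes was among the genes that the authors selected in their 4 deposited tables of changed genes.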

How the data were processed

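The authors deposited, per arm, gene tables of 12 libraries each (2 replicate numbers) with a linear signal per gene, on genome build mm10 (submitters' processing notes). Which aligner and counter they used is not given in the sources used here. Every column of a table holds the same sorted values, so these are quantile-normalized read counts. A further 4 deposited tables of selected genes hold log2 values and were used for names only. A common scale for 36 libraries was rebuilt here: the sorted sets of the 6 tables were averaged and each library's features were given these values by rank. Values were analysed as log2(value + 1), without the features that stood at their library's lowest value in over a share of 0.5 of libraries. Tests were made with limma 3.58.1 in R 4.3.3, with Benjamini-Hochberg adjustment at 0.05 over all features tested, after a check on simulated data. The mean over the day, each time, and the time dependence used 12 group means over 36 libraries (24 residual degrees of freedom); time effects and cosine terms within an arm used 18. Samples were grouped by the labels. The 10 genes and 14 accompanying lists were chosen with earlier results of these data known, and 1 of these lists is not reported here. At most 6 genes are named per muscle list, those with the smallest adjusted p, and likeness names the 8 highest correlations. Alternatives were other pseudocounts, filters, weights, centring, a replicate block, library names and left-out libraries.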

Additional observations from a re-analysis of the deposited data

How the results depend on the processing

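Over 52 alternatives, each run where its libraries allowed the comparison, none of the 10 genes was called in any comparison except the mean over the day. There, array weights gave 2 calls, Actg2 (-0.28, adjusted p 0.0403, limma) and Myl9 (-0.27, adjusted p 0.0389, limma). Array weights also called 3220 of all 17744 features, so these 2 calls do not set the 10 genes apart. Leaving out 1 library at a time gave 0 to 1 calls, the 1 being Actg2 without vehicle 12 h replicate 2, where 1294 of 17680 features were called. The smallest adjusted p of any member over all alternatives was 0.0389. Signs reversed for 4 genes whose differences lie near 0: over the settings that leave out libraries, Acta2 ran from -0.0862 to 0.0596, Myh11 from -0.134 to 0.0286, Cnn1 from -0.112 to 0.0448 and Tagln from -0.0527 to 0.162. Array weights put Tagln at -0.0308; the other names of 8 libraries put Acta2 at 0.0419 and Myh11 at 0.00448; leaving those 8 out put Acta2 at 0.00433. The other 6 genes kept their direction over the day, Actg2 between -0.31 and -0.13 and Myl9 between -0.28 and -0.05 where libraries were left out.

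Numbers of called features moved widely between settings. They cannot be set against the calls among the 10 genes, since so small a set leaves little room for its count to move. For the mean over the day, 735 features were called, against 0 with the other names of 8 libraries, 6 without those libraries, 409, 1 and 29 without replicate numbers 1, 2 and 3, 3220 with array weights, 1237 with a replicate block and 28673 with no filter; the last tests features that stand at the lowest value in most libraries. Leaving out 1 library gave 410 to 1294. Without a filter 26656 to 28175 features were called at single times, and otherwise 0 to 394 at 4 h (29 in the reported fit), 0 to 949 at 8 h (136), 0 to 11 at 12 h (8), 0 to 98 at 16 h (2), 0 to 58 at 20 h (0) and 0 to 196 at 24 h (6). Time dependence ran from 0 to 221 (23), rhythm difference from 0 to 24 (19), change over time in vehicle from 0 to 3874 (71) and in CORT from 0 to 59 (3), rhythm in vehicle from 0 to 161 (78) and in CORT from 0 to 3 (0). Under the other names 0 of the 10 genes and 0 features were called by limma in every comparison. The cause of these shifts was not tested.

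The labels do not tie replicate numbers to a shared animal or batch, and not every pair of libraries with the same number correlated over 0.1, so no block was used in the reported fits. Over 198 such pairs across groups the correlation of deviations ran from -0.34 with a median of 0.04, against -0.02 for different numbers, and a share of 0.308 lay over 0.1. Yet 30 of 36 libraries were closest to their own number, a hint of pairing from the data and not from the design. With the replicate block 0 of the 10 genes was called. Replicate 1 lay above replicates 2 and 3 by 0.14 (Des) to 0.62 (Myh11) in log2, against a median of -0.02 over all features. Without a block such a shift counts as spread within groups and adds to the standard errors and intervals given above. Ranks set a limit: Myh11 cannot rise above rank 1.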
